A study of Mus musculus with 18 samples.

Results

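The CSF1 and TGF-beta survival signals of microglia were followed through 10 genes, of the 24421 gene symbols in each table of raw counts. The 10 were listed by name as ligands, receptors and carriers of the 2 pathways: the ligands Csf1, Il34, Tgfb1, Tgfb2 and Tgfb3, the receptors Csf1r, Tgfbr1 and Tgfbr2, the TGF-beta anchoring protein Nrros, and the signal transducer Smad3. RNA-seq libraries had been made from microglia and from astrocytes, the main glial cell of the brain that supports neurons, after both were isolated by fluorescence-activated sorting from the brains of the same 9 mice. The mice were C57BL/6j, untreated, and either wild type (WT, 4 mice: replicate 1 female, replicates 2 to 4 male) or APP-NLGF (APP, 5 mice: replicate 1 male, replicates 2 to 5 female). APP-NLGF mice are a knock-in model in which the mouse App gene itself carries a humanised amyloid-beta sequence with familial Alzheimer's disease mutations, so that amyloid plaques form without a transgene promoter. The labels give these mice the genotype APP_NLGF/NLGF, and all 18 library names carry C3WT, the intact complement C3 gene; the age of the mice was not given in the sources used here. Both libraries of a number come from one animal, so that a replicate is an animal. Within a cell type a p-value measures the spread between these mice. The main fit across cell types treated both libraries of a mouse as independent.

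Microglia, the resident macrophages of the brain, need continuous signalling through the CSF1 receptor to stay alive, and this receptor has a pair of ligands, CSF1 and interleukin 34. TGF-beta is released in a latent form that has to be held at a cell surface and activated; it then brings together a type II and a type I receptor, which phosphorylate SMAD2 and SMAD3. In microglia the latent ligand is anchored by NRROS, and loss of TGF-beta signalling is known to strip microglia of their homeostatic gene expression.

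Total counts per library ran from 8834866 to 11700620 in WT microglia, 11858295 to 18363154 in APP microglia, 10569776 to 21865752 in WT astrocytes and 18125387 to 22522407 in APP astrocytes. Levels below are CPM, a gene's counts relative to the size of its library, scaled jointly over all 18 libraries. The labels of both cell types were borne out by their markers: the sum of 15 microglial markers was 31820 to 42000 CPM in the microglia and 106.3 to 357.5 CPM in the astrocytes, and the sum of 12 astrocyte markers was 33000 to 46230 CPM in WT astrocytes, 25170 to 29450 CPM in APP astrocytes and 588.2 to 2098 CPM in the microglia. No marker of either list was at 0 throughout a group. In APP astrocytes 8 of the 12 astrocyte markers were called lower and 1 higher, and 4 of 4 ependymal markers higher (sum 42.48 to 284.8 CPM in WT and 278.2 to 445.7 CPM in APP, none at 0); their part in the astrocyte differences below was not tested. WT replicates 1 and 4 stood apart from the other mice. In their astrocyte libraries 10 endothelial markers summed to 424 and 361.4 CPM, against 2769 and 2139 CPM in WT replicates 2 and 3 and 2058 to 3286 CPM in the APP mice, and their microglia held 30.52 and 32.96 CPM of 9 mural cell markers, against 147.6 to 225.2 CPM in the other 7 mice. Their astrocyte libraries were also lowest in mural markers (1451 and 872.3 CPM, against 2289 to 3034 CPM in the others). The same held for fibroblast markers (149.1 and 218.9 CPM, against 313 to 521.7 CPM). Sex was also unevenly spread over the genotypes, so it was a term in every main fit. The permutation tests of ligand shares given below had no sex term, so they do not separate genotype from sex. Without WT replicate 1, the only WT female, the genotype comparison rests on the males alone, with a single APP male. The same holds without WT replicates 1 and 4 together. Without APP replicate 1, the only APP male, it rests on the females alone, with a single WT female. A call lost in these fits can thus reflect the smaller design as well as the libraries left out.

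Receptor RNA was higher in the microglia and ligand RNA was divided between the cell types. The astrocyte libraries also held Tgfbr2, at 10.2% of the microglial level of the same mouse in WT and 14.7% in APP (medians). In WT mice, 6 of the 10 genes were higher in microglia (Csf1r, Tgfb1, Tgfbr1, Tgfbr2, Nrros and Smad3), 3 were higher in astrocytes (Il34, Tgfb2 and Tgfb3), and Csf1 was not called different (edgeR quasi-likelihood test, adjusted p under 0.05; 80.1% of the 15550 genes tested were called between these cell types, 37.9% higher in microglia and 42.3% lower). In APP mice all 10 differed, with 7 higher in microglia, since Csf1 joined that side (81.1% of all genes called, 40.7% higher and 40.4% lower). A difference between the cell types was thus common among all genes and the 9 and 10 calls are read against that. Fits that left out any single mouse gave 9 and 10 calls in every case.

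**Figure D1:**
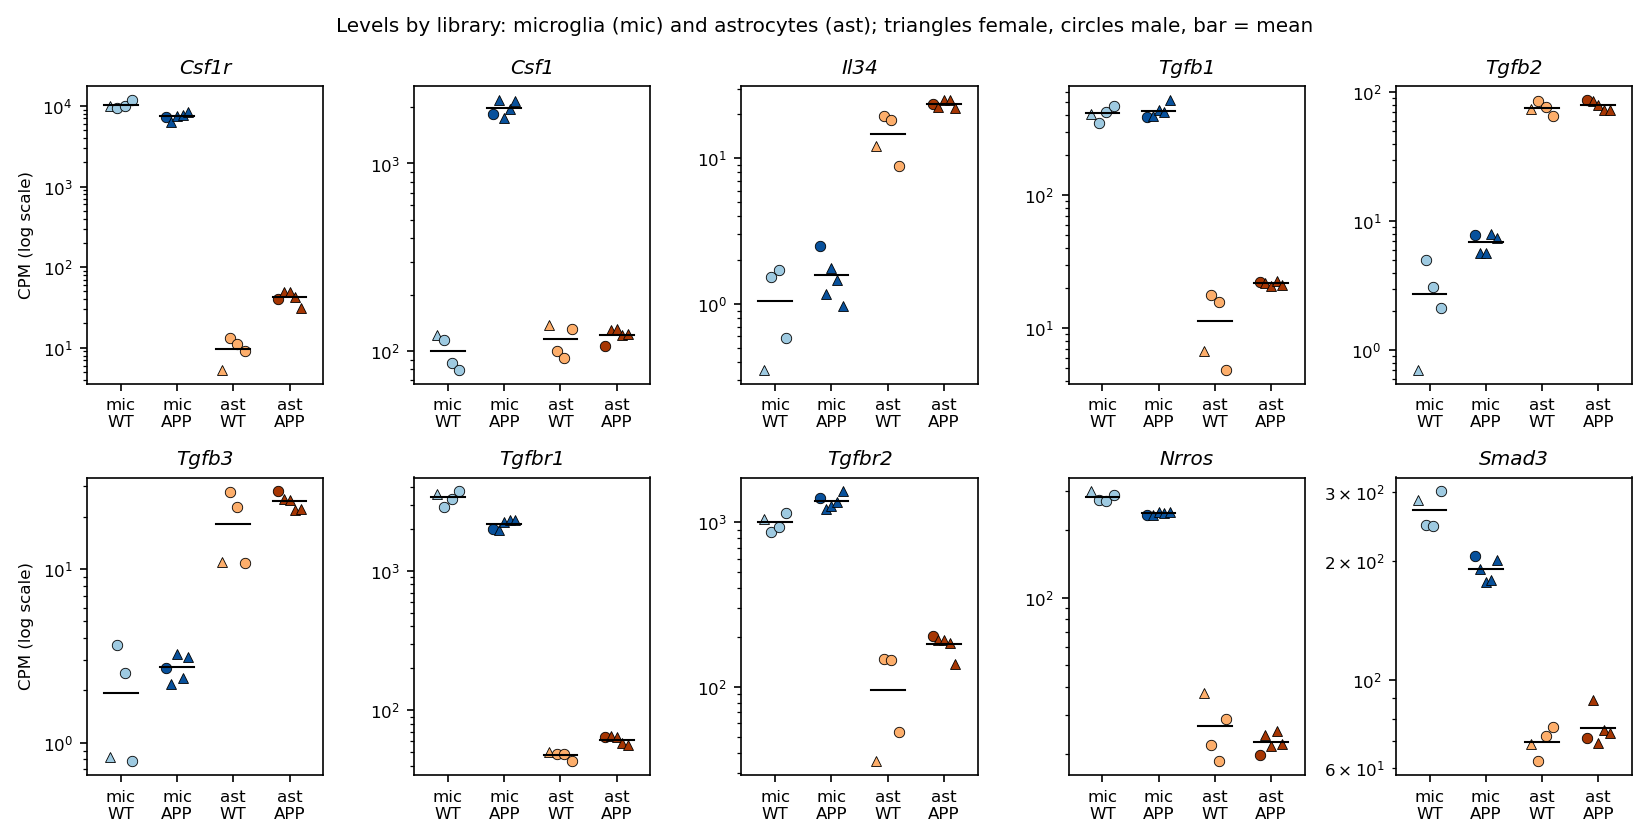
CPM of each of the 10 genes (log axis) in every library, with microglia (mic) and astrocytes (ast) of WT and APP mice as separate groups of points, triangles for females, circles for males and a bar at the mean. Csf1r, Tgfbr1 and Tgfb1 were higher in all microglial than in all astrocyte libraries, Tgfb2 and Il34 were higher in the astrocytes, and Csf1 in APP microglia (1753 to 2191 CPM) lay above every other group.

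Csf1r (chromosome 18: 61100598 to 61132149, + strand, GRCm38, GENCODE M21), the receptor tyrosine kinase for CSF1 and interleukin 34, measured 10000, 9527, 9888 and 12040 CPM in WT microglia, replicates 1 to 4, and 7309, 6307, 7541, 7672 and 8352 CPM in APP microglia, replicates 1 to 5. Every APP library was below every WT library. The level fell by 0.47 on the log2 scale (SE 0.13, adjusted p 0.0145, edgeR), a 1.38-fold difference. The fall was not called without WT replicate 1 (-0.52), without APP replicate 1 (-0.41), without WT replicates 1 and 4 together (-0.43) or with no filter on low counts (-0.43), with adjusted p from 0.000177 to 0.201 over the alternatives tried. Border-associated macrophages, which also use this receptor, differed in the same libraries: the sum of 9 of their markers was 1835 to 2010 CPM in WT and 376.8 to 677.1 CPM in APP microglia, with 7 of 9 called lower and none at 0. Their part in the Csf1r value was not tested. In bulk libraries of sorted cells, fewer cells of a type and less RNA per cell cannot be told apart.

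Astrocyte libraries held little Csf1r. It measured 5.29, 13.1, 11.1 and 9.10 CPM in WT and 40.1, 48.5, 49.3, 43.0 and 30.7 CPM in APP mice. The groups did not overlap, and the level rose 5.17-fold (log2 fold change 2.37, SE 0.29, adjusted p 0.00271, edgeR). It was called in every alternative, with a log2 fold change between 1.70 and 2.98. As a share of the microglial level in the same mouse, the astrocyte level was 0.0941% (0.0529 to 0.137%, median and range) in WT and 0.56% (0.368 to 0.769%) in APP. The same share for the 15 microglial markers had a median over markers of 0.137% (range over markers 0.0959 to 0.867%) in WT and 0.688% (0.459 to 2.93%) in APP, and 14 of the 15 markers were called higher in APP astrocytes. Their summed level was 106.3 to 128.5 CPM in WT and 267.5 to 357.5 CPM in APP astrocytes. None of the 15 was at 0 throughout a group, and 1 was at 0 in WT replicate 3. The part of microglial RNA in the astrocyte Csf1r value was not tested.

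Csf1 (chromosome 3: 107741048 to 107760469, - strand), the secreted or membrane-held ligand that drives macrophage survival and proliferation, was the gene that differed most in the microglia of the 10. It measured 122.4, 114.2, 86.24 and 79.35 CPM in WT and 1828, 2191, 1753, 1958 and 2146 CPM in APP microglia. The lowest APP library was thus far above the highest WT library. The rise was 17.9-fold (log2 fold change 4.16, SE 0.15, adjusted p 5.18e-09, edgeR) and stayed between 4.05 and 4.29 on the log2 scale under every alternative. In astrocytes the levels were 138.4, 100.4, 92.47 and 131.3 CPM in WT and 106.6, 129.2, 132, 121.4 and 123.9 CPM in APP mice. These groups overlapped, and the log2 fold change was -0.11 (SE 0.12, adjusted p 0.519, edgeR). The responses differed between the cell types by 4.31 on the log2 scale, microglia minus astrocytes (SE 0.22, adjusted p 1.19e-08, edgeR).

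The balance of Csf1 between the cell types differed by genotype. In WT mice the microglial and astrocyte means were 100.6 ± 20.97 and 115.6 ± 22.62 CPM (SD, n = 4), and the difference, -0.21 on the log2 scale (SE 0.15), had an adjusted p of 0.209 (edgeR). In APP mice they were 1975 ± 191.8 and 122.6 ± 9.892 CPM (SD, n = 5), a 17.2-fold difference in favour of microglia (log2 4.11, SE 0.15, adjusted p 1.19e-12, edgeR). Of the markers of the oligodendrocyte lineage, 3 of 6 oligodendrocyte markers were called higher in APP microglia (sum 135.8 to 383.7 CPM in WT and 310.7 to 678.8 CPM in APP, none at 0). Of 5 oligodendrocyte precursor markers 3 were tested and Cspg4 alone was called, with a rise from 9.647 ± 8.542 to 134.9 ± 35.31 CPM (SD, n = 4 and 5; log2 4.09, adjusted p 0.000165, edgeR), which carried the sum of that list (4.376 to 26.62 CPM in WT and 118.6 to 202.2 CPM in APP). Their part in the Csf1 value was not tested. The genes with the most similar profile over the 9 microglial libraries were Ptchd1 (Pearson r 0.999 of log2 CPM), the chemokine gene Cxcl16 (0.998) and Cpq (0.998), of 9852 compared; this describes libraries that share the genotype difference.

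The 250 bases upstream of the annotated Csf1 start are shown because the microglial rise is the main change among the 10 genes, and those of Tgfbr1 and Tgfbr2 because the 2 subunits of one receptor moved in opposite directions in the same cells. The sequences are from RefSeq (GRCm38.p6), 5′ to 3′ on the strand of the gene, at chr3:107760470-107760719 (- strand) for Csf1, chr4:47352972-47353221 (+ strand, the first of 2 annotated starts) for Tgfbr1 and chr9:116175364-116175613 (- strand) for Tgfbr2. Capitals mark matches to the motifs searched.
Csf1: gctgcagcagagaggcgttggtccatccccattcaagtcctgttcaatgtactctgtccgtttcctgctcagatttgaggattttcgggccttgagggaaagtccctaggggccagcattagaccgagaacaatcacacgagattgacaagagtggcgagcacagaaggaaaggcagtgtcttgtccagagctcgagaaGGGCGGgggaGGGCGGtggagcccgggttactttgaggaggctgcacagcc
Tgfbr1: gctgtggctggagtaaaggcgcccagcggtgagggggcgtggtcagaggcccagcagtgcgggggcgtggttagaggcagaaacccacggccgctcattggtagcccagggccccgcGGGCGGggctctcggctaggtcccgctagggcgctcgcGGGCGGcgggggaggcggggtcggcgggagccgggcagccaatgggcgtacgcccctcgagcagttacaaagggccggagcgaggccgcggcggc
Tgfbr2: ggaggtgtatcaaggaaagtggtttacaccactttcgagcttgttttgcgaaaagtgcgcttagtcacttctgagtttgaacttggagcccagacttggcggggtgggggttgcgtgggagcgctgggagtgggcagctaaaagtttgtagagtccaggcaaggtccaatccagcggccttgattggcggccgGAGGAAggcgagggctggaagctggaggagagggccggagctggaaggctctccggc
Searched on both strands were the GC box GGGCGG, the AP-1 motif TGANTCA, the PU.1-type ETS motif GAGGAA and the E-box CACGTG. The Csf1 and the first Tgfbr1 windows each held 2 GC boxes, a motif found in 32.7% of the 32851 promoter windows of the same length, and the Tgfbr2 window held 1 GAGGAA, found in 23.3%. The window of the other annotated Tgfbr1 start, not shown, held 1 GAGGAA and no GC box. None of the matches overlapped another. The other motifs, with shares of 6.75% for TGANTCA and 6.02% for CACGTG, had no match in any of these windows.

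Il34 (chromosome 8: 110741829 to 110805924, - strand), the other CSF1R ligand, was higher in the astrocyte than in the microglial libraries. Astrocytes measured 12.2, 19.5, 18.5 and 8.91 CPM in WT and 23.7, 22.4, 25.1, 25.3 and 22.2 CPM in APP mice. Every APP library was above every WT library, but the log2 fold change of 0.74 (SE 0.25) had an adjusted p of 0.0564 (edgeR) and was not called. DESeq2 called it (adjusted p 0.0134), and over all alternatives the adjusted p ran from 0.0134 to 0.585. The low astrocyte libraries were WT replicates 1 and 4, those with few endothelial transcripts. Their astrocyte marker sums were 46230 and 44050 CPM, against 33860 and 33000 CPM in WT replicates 2 and 3. Which cells in the astrocyte libraries held the Il34 RNA was not tested. Microglia held 0.352, 1.53, 1.71 and 0.583 CPM in WT and 2.50, 1.17, 1.76, 1.46 and 0.972 CPM in APP mice, from 3 to 28 reads a library. The level was 17.2-fold higher in astrocytes than in microglia in WT (log2 -4.10 for microglia against astrocytes, SE 0.35, adjusted p 2.47e-08, edgeR) and 12.3-fold higher in APP (log2 -3.62, SE 0.32, adjusted p 3.57e-08). The microglial level was 7.19% of the astrocyte level of the same mouse in WT (median), where the 12 astrocyte markers were at 3.02% (median over markers, range 2.36 to 5.98%), and 5.76% in APP, where the markers were at 3.06% (range 2.45 to 8.06%). Neurons, a known source of Il34, were not sorted.

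**Figure D2:**
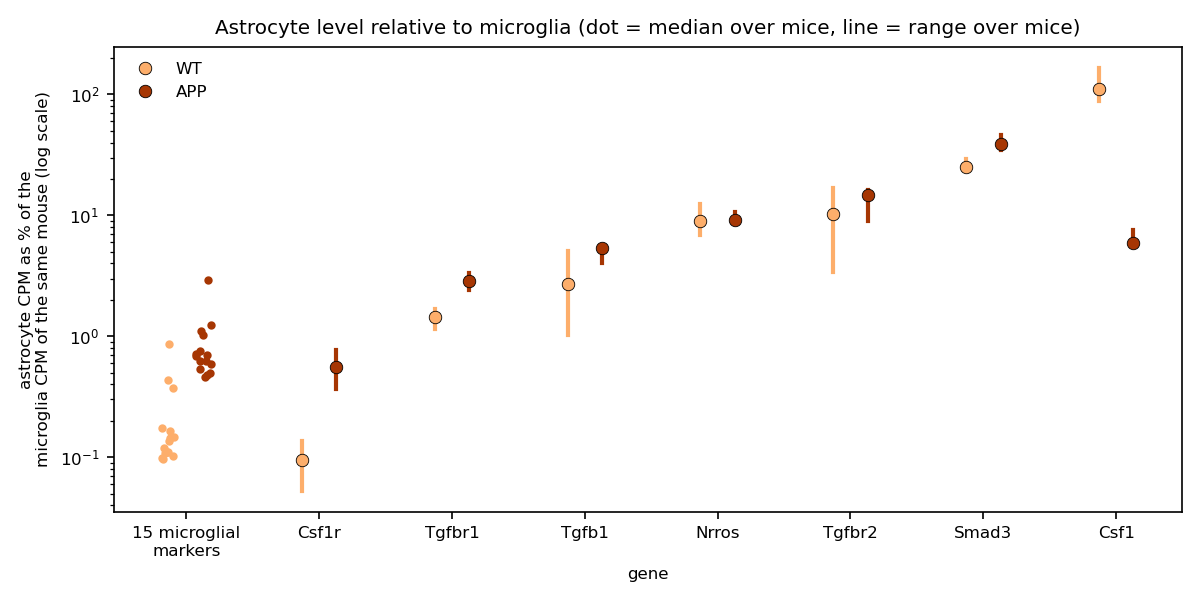
Astrocyte CPM as a percentage of the microglial CPM of the same mouse (log axis) in WT (light) and APP (dark) mice, for 15 microglial markers (1 dot each, the median over mice) and for the 6 genes higher in WT microglia and Csf1 (point, median over mice; line, range). In astrocytes Csf1r lay at 0.0941% in WT, just below the lowest of the microglial markers (0.0959%), and at 0.56% in APP, within their range, whereas the medians of Nrros, Tgfbr2 and Smad3 lay at 9% or more.

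Per kilobase of exon, the scale on which levels of different genes can be compared, Csf1 made up 97.2 ± 1.87% (SD, n = 4) of the Csf1 and Il34 RNA of WT microglia and 99.8 ± 0.1% (SD, n = 5) in APP microglia (exact two-sided permutation p 0.00794, the smallest that 126 splits can give; 0.0159 adjusted over 4 tests of shares). In astrocytes Csf1 made up 74 ± 10.2% in WT and 65.6 ± 2.36% in APP (SD; exact permutation p 0.127, adjusted 0.127), with the difference not called. Csf1 was thus the more abundant of the 2 ligand RNAs in both cell types, and the Il34 part was larger in astrocytes. The higher microglial share in APP follows from the Csf1 rise given above, and its test adds no separate result.

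Tgfb1 (chromosome 7: 25687002 to 25705077, + strand), a ligand that microglia are known to supply to themselves, was the main TGF-beta ligand RNA of microglia and was not called between genotypes there. The levels were 410.4, 350.6, 419.5 and 470 CPM in WT and 390.9, 394.5, 434.3, 420.6 and 525.2 CPM in APP microglia. The groups overlapped (log2 fold change 0.02, SE 0.12, adjusted p 0.91, edgeR). Astrocytes held 6.78, 17.8, 15.7 and 4.85 CPM in WT, where replicates 1 and 4 were the low ones, and 20.6 to 22.7 CPM in the 5 APP mice. All APP libraries were higher, but the log2 fold change of 1.18 (SE 0.4) was not called (adjusted p 0.0596, edgeR; range over alternatives 0.00707 to 0.446). Microglia exceeded astrocytes 40.1-fold in WT (log2 5.32, SE 0.31) and 18.7-fold in APP (log2 4.23, SE 0.28).

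Tgfb2 (chromosome 1: 186622792 to 186705989, - strand) and Tgfb3 (chromosome 12: 86056745 to 86079041, - strand), the other TGF-beta ligands, were higher in astrocytes. Tgfb2 in astrocytes was 64.9 to 85.6 CPM in WT and 72.4 to 87.8 CPM in APP, and was not called (log2 0.10, SE 0.11, adjusted p 0.499, edgeR). In WT mice the astrocyte level of Tgfb2 was 30.4-fold the microglial one, and in APP mice 9.66-fold. In microglia Tgfb2 measured 0.704, 5.02, 3.07 and 2.14 CPM in WT and 7.78, 5.67, 5.71, 7.94 and 7.45 CPM in APP, which is 6 to 59 and 68 to 115 reads a library. The groups did not overlap and the level rose 3.67-fold (log2 1.87, SE 0.44, adjusted p 0.00545, edgeR), but WT replicate 1 was the lowest library and the rise was not called without it (1.17) or without WT replicates 1 and 4 (0.91), with adjusted p from 3.15e-05 to 0.115 over the alternatives. Mural markers in the same microglial libraries were lowest in WT replicates 1 and 4, at 30.52 and 32.96 CPM, and were 225.2 and 198.4 CPM in WT replicates 2 and 3 and 147.6 to 205.1 CPM in APP. The astrocyte marker sum was 775.2 to 2098 CPM in WT and 588.2 to 2064 CPM in APP microglia. The part of mural or astrocyte RNA in the microglial Tgfb2 value was not tested.

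Tgfb3 in astrocytes was 11.0, 27.9, 22.8 and 10.8 CPM in WT and 22.1 to 28.2 CPM in APP. Again WT replicates 1 and 4, the libraries with few endothelial, mural and fibroblast transcripts, were low, while replicates 2 and 3 lay in the APP range. Which cells in the astrocyte libraries held the Tgfb3 RNA was not tested. The log2 fold change was 0.74 (SE 0.3, adjusted p 0.0958, edgeR). In microglia Tgfb3 was 0.778 to 3.66 CPM in WT and 2.17 to 3.26 CPM in APP, from 7 to 52 reads, and was not called (log2 0.83, SE 0.55, adjusted p 0.256). Per kilobase of exon, Tgfb1 made up 98.7 ± 1.04% of the TGF-beta ligand RNA of WT microglia and 97.7 ± 0.27% in APP microglia (SD; exact permutation p 0.0952, adjusted 0.127). In astrocytes its share was 10.2 ± 3.74% in WT and 17.1 ± 1.42% in APP (SD; exact permutation p 0.00794, adjusted 0.0159), with most of the rest being Tgfb2. The WT shares ran from 6.26 to 13.4% and the APP shares from 15.9 to 19.1%. Tgfb1 itself was low in WT replicates 1 and 4, and the share was not tested without both. The microglial markers were higher in the APP astrocyte libraries, as given above, and their part in the share was not tested. The response of Tgfb2 differed between the cell types by 1.65 on the log2 scale (SE 0.42, adjusted p 0.0109, edgeR) and was not called without mouse WT 1 (0.97; range of adjusted p over alternatives 0.000311 to 0.266).

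Tgfbr1 (chromosome 4: 47353222 to 47414931, + strand), the type I receptor kinase that phosphorylates SMAD2 and SMAD3, fell in APP microglia. It measured 3598, 2897, 3299 and 3750 CPM in WT and 2006, 1972, 2257, 2328 and 2326 CPM in APP microglia, with no overlap. The fall was 1.63-fold (log2 -0.71, SE 0.11, adjusted p 0.000318, edgeR), and it was called under every alternative, between -0.75 and -0.64. In astrocytes the levels were 50.3, 48.7, 48.7 and 42.9 CPM in WT and 63.9, 65.3, 64.1, 57.7 and 56.4 CPM in APP, again apart but in the other direction (1.25-fold higher, log2 0.33, SE 0.09, adjusted p 0.0264, edgeR). The astrocyte rise was not called without WT replicate 1 (0.41), without APP replicate 1 (0.24) or without WT replicates 1 and 4 (0.36). The same held with the mean log2 CPM of the endothelial markers as a covariate (0.27) or with the replicate number as a block (0.35). Over the alternatives the adjusted p ran from 0.00866 to 0.196. The responses differed between cell types by -0.99 on the log2 scale (SE 0.15, adjusted p 0.000273, edgeR). The astrocyte level was 1.44% of the microglial level in WT and 2.84% in APP (medians). The microglial markers had a median of 0.137% in WT (range over markers 0.0959 to 0.867%) and 0.688% in APP (0.459 to 2.93%). The APP value of Tgfbr1 thus lay within the range of the markers. The part of microglial RNA in the astrocyte Tgfbr1 value was not tested.

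Tgfbr2 (chromosome 9: 116084293 to 116175360, - strand), the type II receptor that binds the ligand and activates TGFBR1, went the other way in microglia. It was 1042, 871.8, 931.7 and 1140 CPM in WT and 1393, 1200, 1245, 1327 and 1540 CPM in APP microglia. All APP libraries were higher, by 1.34-fold (log2 0.43, SE 0.11, adjusted p 0.0105, edgeR). The call was lost without WT replicate 1 (0.50) and without APP replicate 1 (0.36), over a range of adjusted p from 0.00104 to 0.123. Endothelial cells express this gene, and 8 of their 10 markers were tested in microglia. Flt1 rose from 6.686 ± 5.098 to 114.9 ± 25.43 CPM (SD, n = 4 and 5) and carried the sum of the list (69.62 to 87.27 CPM in WT, 127.5 to 191 CPM in APP), while Pecam1 fell from 41.8 ± 9.253 to 7.573 ± 1.484 CPM and no other was called. None of the 10 was at 0 throughout a group, but 4 were at 0 in WT replicate 1. The part of endothelial RNA in the Tgfbr2 value was not tested.

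In astrocytes Tgfbr2 was low in the same libraries in which endothelial, mural and fibroblast markers were low, WT replicates 1 and 4. Which cells in the astrocyte libraries held the Tgfbr2 RNA was not tested. It was 35.3 and 52.9 CPM in WT replicates 1 and 4, 147.3 and 146.4 CPM in WT replicates 2 and 3, and 204.9, 193.8, 193.4, 184.5 and 138.1 CPM in APP replicates 1 to 5. The groups overlapped. The log2 fold change was 1.55 (SE 0.46, adjusted p 0.0388, edgeR), but 0.45 without WT replicates 1 and 4 and 0.79 without WT replicate 1. With the mean log2 CPM of the endothelial markers as a covariate it was 0.54, and with no sex term 0.90. The change was not called in any of these alternatives. It was not called either with voom (1.36) or without any 1 of APP replicates 2 to 5 (1.52 to 1.58), so that 9 of 18 alternatives lost the call (range of adjusted p 0.000444 to 0.383). The difference in response between the cell types was not called for this gene (-1.08, SE 0.48, adjusted p 0.128).

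**Figure D3:**
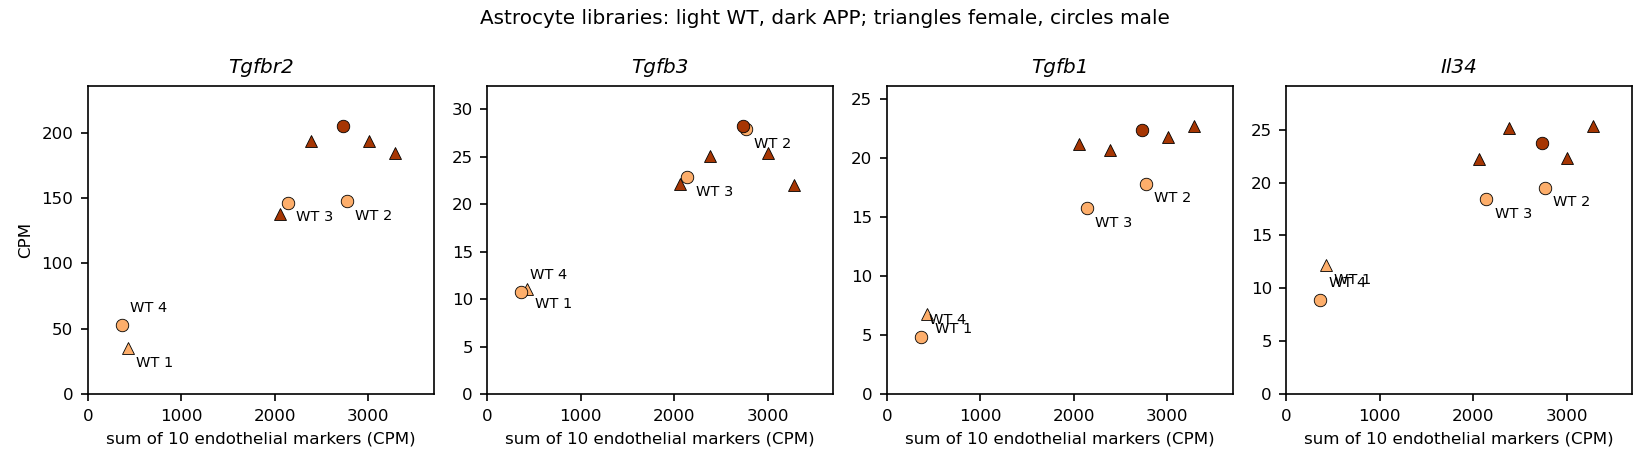
CPM of Tgfbr2, Tgfb1, Tgfb3 and Il34 in each astrocyte library (vertical axis) against the sum of 10 endothelial markers in that library (horizontal axis, CPM), WT light and APP dark, triangles female and circles male. WT replicates 1 and 4, at 424 and 361.4 CPM of endothelial markers, had the lowest values of each of these genes.

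Nrros (chromosome 16: 32142785 to 32165594, - strand), which tethers latent TGF-beta1 to the microglial surface, measured 300.3, 274, 271.5 and 287.1 CPM in WT and 234.6, 235.1, 242.7, 239 and 241.7 CPM in APP microglia. The APP values lay within a narrow band below all WT values, and the fall was 1.22-fold (log2 -0.28, SE 0.06, adjusted p 0.00359, edgeR). It was not called without WT replicate 1 (-0.25) or without WT replicates 1 and 4 (-0.24), with adjusted p from 9.79e-06 to 0.153 over the alternatives. In astrocytes Nrros was 37.5, 22, 18.5 and 28.6 CPM in WT and 19.8 to 25.2 CPM in APP mice, and was not called (log2 -0.49, SE 0.16, adjusted p 0.054, edgeR). Here WT replicates 1 and 4 were the high ones. The astrocyte level was 9% (6.82 to 12.5%) of the microglial level in WT and 9.15% (8.43 to 10.6%) in APP (median and range over mice). The microglial markers had medians of 0.137% and 0.688%, a difference smaller than the spread of Nrros between mice. The part of microglial RNA in the astrocyte Nrros value was not tested.

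Smad3 (chromosome 9: 63646767 to 63757994, - strand), the transcription factor phosphorylated by TGFBR1, measured 285.9, 247.3, 246.3 and 301.5 CPM in WT and 205.9, 191.9, 177.3, 179.8 and 201.4 CPM in APP microglia. The groups were apart, and the fall was 1.40-fold (log2 -0.49, SE 0.09, adjusted p 0.00103, edgeR). The call was lost without WT replicate 1 (-0.37) and without WT replicates 1 and 4 (-0.28), with adjusted p from 4.3e-06 to 0.124 over the alternatives. Of the 6 genes higher in microglia in WT mice, Smad3 had the smallest difference between the cell types, 3.81-fold in WT and 2.7-fold in APP. Astrocytes held 62.3 to 76.1 CPM in WT and 69.4 to 89.3 CPM in APP (log2 0.06, SE 0.11, adjusted p 0.719, edgeR). The responses differed between cell types by -0.50 (SE 0.13, adjusted p 0.0153, edgeR), and this was not called without mouse WT 1 (-0.36; range of adjusted p over alternatives 0.000934 to 0.377).

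**Figure D4:**
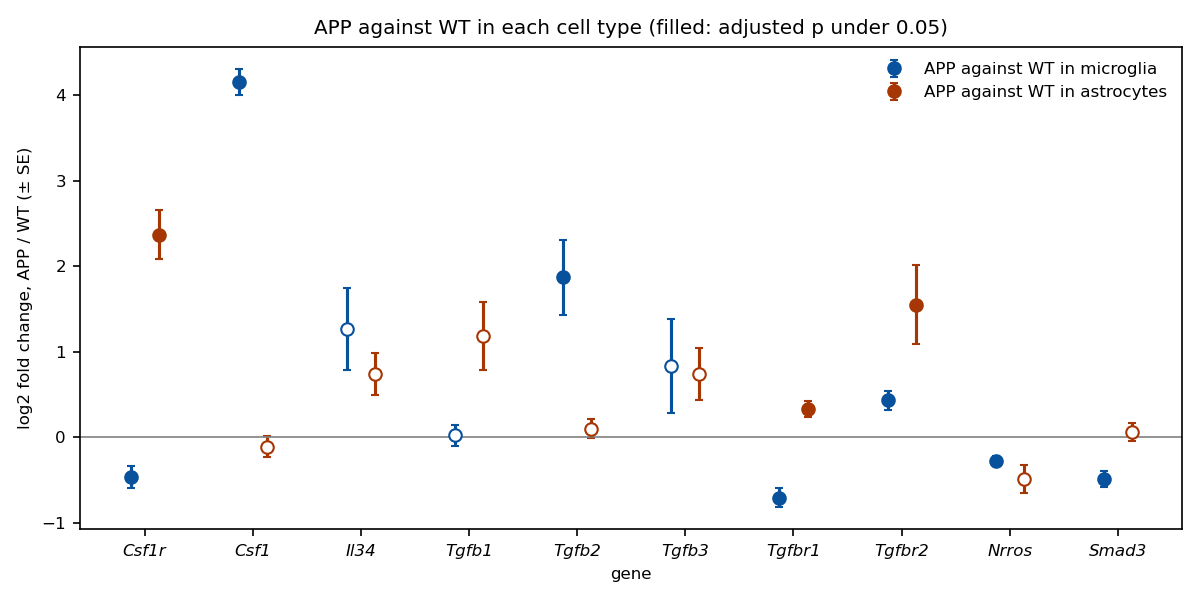
log2 fold change of APP against WT for each of the 10 genes in microglia and in astrocytes (points, with bars of 1 SE from the edgeR fits; filled points passed adjusted p under 0.05). Csf1 at 4.16 in microglia and Csf1r at 2.37 in astrocytes lie farthest from 0 in their cell type, and Tgfbr1 has opposite signs in the 2 cell types.

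Over the 10 genes, 7 were called between genotypes in microglia, with 3 higher (Csf1, Tgfb2 and Tgfbr2) and 4 lower (Csf1r, Tgfbr1, Nrros and Smad3), where 38.3% of all 13116 genes tested were called (19.1% higher, 19.2% lower). The same 7 genes had groups that did not overlap; among all genes 19.8% had every APP library above every WT library and 17.9% every one below. In astrocytes 3 were called, all higher (Csf1r, Tgfbr1 and Tgfbr2), against 25.6% of 14957 genes (12.1% higher, 13.5% lower), which is near that share. The 4 with non-overlapping astrocyte groups were Csf1r, Il34, Tgfb1 and Tgfbr1 and all were above (11.8% of all genes above, 9.59% below). The response differed between the cell types for 5 genes: Csf1 and Tgfb2 were more positive in microglia, and Csf1r, Tgfbr1 and Smad3 more negative (21.4% of all genes, 12.5% and 8.91% by direction). Without WT replicate 1, 2 microglial calls were left, Csf1 and Tgfbr1, and over all mice left out singly the number ran from 2 to 8. Without WT replicates 1 and 4 together, 3 microglial calls (Csf1, Tgfbr1 and Tgfbr2), 1 astrocyte call (Csf1r) and 3 differences in response (Csf1, Csf1r and Tgfbr1) were left.

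Ordered per kilobase of exon, WT microglia held Csf1r at 1795, Tgfbr1 at 518.2, Tgfbr2 at 121.7, Tgfb1 at 81.83, Nrros at 67.8, Smad3 at 48.77 and Csf1 at 19.04 CPM per kb (means of 4). Tgfb1 and Nrros were the only neighbours in that sequence whose libraries overlapped. Tgfb3, Il34 and Tgfb2 followed at 0.472 to 0.5734 CPM per kb and overlapped one another. In APP microglia Csf1, at 374 CPM per kb, moved to the second place and overlapped with Tgfbr1 at 333.3, below Csf1r at 1288. In WT astrocytes Csf1 led at 21.9 CPM per kb, apart from Tgfb2 at 13.06, and each of the genes below Csf1 overlapped with the next, down to Csf1r at 1.671. In APP astrocytes Csf1 at 23.22 overlapped with Tgfbr2 at 22.34, and Tgfb1 at 4.31 CPM per kb was the lowest, apart from Nrros at 5.417. Where strands were counted together, reads of overlapping genes on the other strand could add to Csf1r (Hmgxb3 shares 873 exonic bases), Il34, Tgfb2 and Tgfb3.

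**Figure D5:**
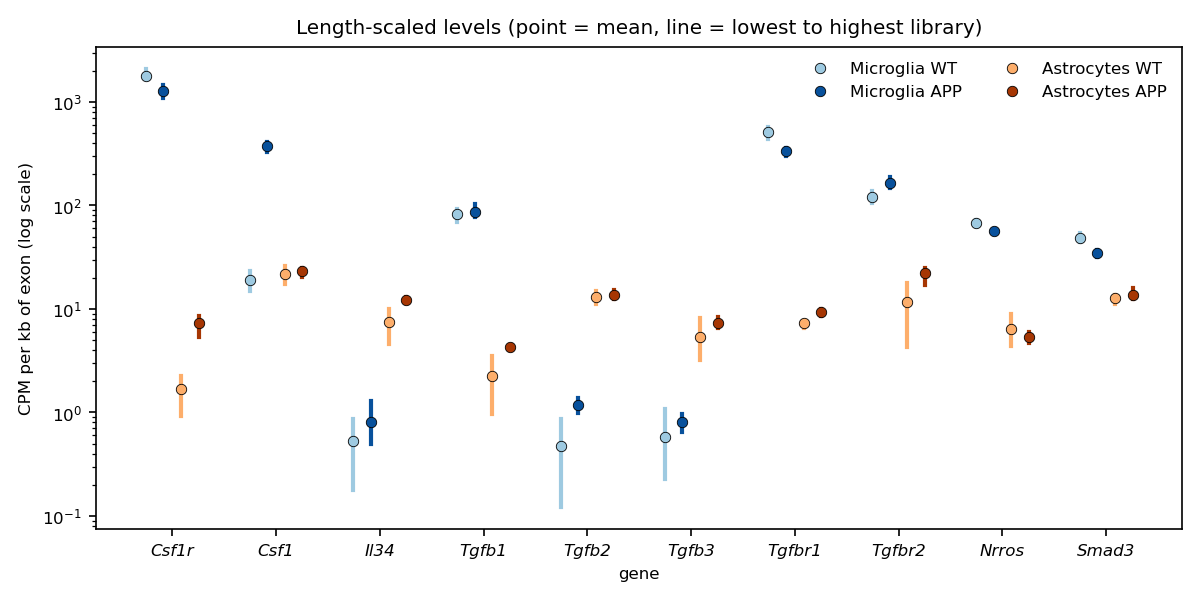
CPM per kilobase of exon of the 10 genes (log axis) in the 4 groups (point, mean; line, lowest to highest library). In microglia Csf1 rises from the seventh place in WT (19.04 CPM per kb) to the level of Tgfbr1 in APP (374 and 333.3 CPM per kb).

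Other genes of the pathways are given beside the share of all genes called in microglia, 19.1% higher and 19.2% lower. Of 25 signalling partners of the CSF1 receptor 24 were tested, 4 were higher and 11 lower, with a median log2 difference of -0.16 against 0.01 over all genes. Tyrobp, the adaptor through which immune receptors recruit SYK, rose from 326.9 ± 29.42 CPM in WT to 1260 ± 182.1 CPM in APP (SD, n = 4 and 5; log2 1.89, adjusted p 1.21e-06, edgeR). The phosphatase gene Ptpn6 (0.58) rose too. The ubiquitin ligase gene Cbl, which ends CSF1R signalling, fell by 0.66, the kinase gene Syk by 0.60 and the phospholipase gene Plcg2 by 0.52 on the log2 scale. Without WT replicate 1 the list had 4 higher and 8 lower, while the calls over all genes went from 5022 to 2641. Among other colony-stimulating factor genes, 4 of 6 were tested, and the receptor genes Csf2ra (1.43) and Csf3r (0.39) were higher and Csf2rb2 (-0.34) lower.

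In the TGF-beta pathway of microglia, genes of each list were called in both directions. Of the 18 genes of latency and activation 17 were tested, 3 were higher and 1 lower (median 0.29): the activator Thbs1 (1.32), the latent TGF-beta binding protein Ltbp3 (0.94) and Itgb3 (0.29) rose, and the integrin subunit gene Itgav, whose heterodimers release active TGF-beta, fell by 0.74. Of 5 co-receptors 4 were tested: Bambi, a decoy receptor without a kinase, rose by 2.72 and the co-receptor Eng fell by 0.87. Of 16 SMADs and regulators, 3 were higher (Tgif1 at 0.97, Zfyve9 at 0.51 and Ppm1a at 0.33) and 6 lower (median -0.14), among them Smad1 (-0.75), Pmepa1 (-0.68) and Smad2 (-0.38). Of 15 general target genes 13 were tested, with 5 higher and 2 lower (median 0.94). Cdkn1a (2.19) and Id2 (1.13) rose, and Tgfbi (-0.72) and Klf10 (-0.63) fell; Cdkn1a and Id2 also answer to many other signals. Without WT replicate 1, the latency genes had 2 higher and 1 lower, the co-receptors 1 and 1, the SMADs and regulators 1 and 2, and the target genes 6 and 1.

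Among 17 microglial genes known to depend on TGF-beta, 11 were lower and 2 higher in APP microglia (median -0.42). Tmem119 fell by 1.47 (adjusted p 7.91e-06), the hexose transporter gene Slc2a5 by 1.11 and the transcription factor gene Sall1 by 0.76, while Gas6 (0.40) and C1qa (0.41) rose. Without WT replicate 1 this list had 0 higher and 6 lower, and without WT replicates 1 and 4 it had 1 higher and 6 lower. Of all 31 pathway genes named for microglia, 23 were still called without WT replicate 1.

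Among all genes in astrocytes 12.1% were called higher and 13.5% lower. Of 25 CSF1R signalling genes 8 were higher and 3 lower (median 0.38), led by Tyrobp (4.35), which measured 0.3566 ± 0.1619 CPM in WT and 6.712 ± 0.9707 CPM in APP (SD, n = 4 and 5), and by Ptpn6 (2.22), with Akt2 (-0.83), Src (-0.42) and Cblb (-0.33) lower. Of the TGF-beta-dependent microglial genes 13 were higher and 2 lower (median 1.29), led by C1qa (adjusted p 6.23e-06), Fcrls (2.99) and Cx3cr1 (2.40), which belong to the microglial markers that rose in these libraries. Mertk, a phagocytic receptor gene that astrocytes also express, fell by 1.39 and Sall1 by 0.57. Fbn1 (1.03), Mmp2 (1.37) and Itgb3 (1.54) rose and Itgav (-0.66) and Ltbp1 (-0.45) fell among 16 latency genes tested, and the co-receptor genes Cd109 (1.96) and Tgfbr3 (1.19) rose, 2 of 5. Of the SMADs and regulators 3 were higher and 1 lower: Tgif1 (1.00), Pmepa1 (0.92) and Smad5 (0.36) rose and Smad9 fell by 0.50. Of 15 target genes 4 were higher, among them Snai1 (1.65), Snai2 (1.48) and Col1a1 (1.33), and Id2 fell by 1.00. The fibroblast markers, which include Col1a1, were all called higher in the same libraries (5 of 5, sum 149.1 to 349.4 CPM in WT and 408 to 521.7 CPM in APP, none at 0), and their part was not tested. Without WT replicate 1 the CSF1R signalling list had 1 higher and 0 lower, the TGF-beta-dependent list 3 higher and 0 lower, and the other TGF-beta lists no call by edgeR; over all genes the calls went from 3836 to 34. In that fit 4 of the 27 named astrocyte genes were called: Tyrobp, C1qa, Fcrls and Cx3cr1.

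Similarity of profiles was also measured for the other genes, as Pearson r of log2 CPM over the 9 libraries of the cell type where each was higher, which share genotype and depth differences. Csf1r was closest to Rab35 (0.991), the Src-family kinase gene Lyn (0.990) and Pla2g15 (0.989), and Tgfbr1 to Ppp2r1b, Prkce (both 0.991) and Itch (0.989). Tgfbr2 was closest to Tapbp (0.988), Nrros to Gpr160 (0.997), Smad3 to Ncaph (0.991) and Tgfb1 to Ndnl2 (0.970). In astrocytes Il34 was closest to Slc6a20a (0.993), Tgfb3 to Ntn4 (0.994) and Tgfb2 to Pias2 (0.954).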

How the data were processed

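RNA of sorted microglia and astrocytes was sequenced from 9 mice (18 libraries). The authors deposited raw counts per gene, 1 table per cell type; the submitters' processing notes name STAR 2.7.3a, Trimmomatic 0.39, SAMtools 1.9, FastQC 0.11.8, limma 3.46.0, edgeR 3.32.1 and mm10. Which program counted the reads, on which annotation and with which strand setting was not given in the sources used here. These tables are said to leave outliers out, and the deposited normalised tables were not used. No 2 libraries held identical counts.

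Groups came from the labels. APP was compared with WT within each cell type with edgeR 4.0.16 (R 4.3.3) quasi-likelihood tests, with sex as a covariate, filterByExpr (minimum count 10, minimum total 15), TMM scaling and Benjamini-Hochberg adjustment over all genes tested, called at adjusted p under 0.05. A joint fit of all 18 libraries compared the cell types in each genotype and the responses, with no term for the mouse in the main fit. CPM in the text use 1 TMM scale for all libraries, and fold changes come from the fits; CPM per kb divide by GENCODE M21 (GRCm38) exon length. Ligand shares were tested by exact permutation over mice, with no sex term. The fits were tested on simulated data. Alternatives were DESeq2 1.42.0, limma 3.58.1 voom, RLE scaling, other filters, no sex term, replicate blocks, libraries left out and an endothelial covariate.

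The members and lists were chosen with earlier results of these data known, and the promoter motifs after the values were seen. All 10 genes were named, and of each list up to 3 called genes per direction by adjusted p with a mean of at least 1 CPM; likeness needed a mean of at least 5 CPM. Some genes that this rule names are not reported here. Microglia and astrocytes were paired by mouse through the number in the library names: their deviations from group means correlated at 0.0509 to 0.43 over 9 mice, and 6 of 9 microglial libraries matched their own mouse best. Promoters were matched by symbol in RefSeq.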

Additional observations from a re-analysis of the deposited data

Results flagged for a closer look

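For 5 of the 10 genes the response to the APP genotype differed between the cell types in the joint edgeR fit, given here as microglia minus astrocytes on the log2 scale. Among all genes 21.4% were called, 12.5% higher and 8.91% lower. Csf1 differed by 4.31 (adjusted p 1.19e-08) and Tgfb2 by 1.65 (adjusted p 0.0109), and Csf1r by -2.79 (adjusted p 3.69e-05), Tgfbr1 by -0.99 (adjusted p 0.000273) and Smad3 by -0.50 (adjusted p 0.0153). Csf1, Csf1r and Tgfbr1 remained called without WT mice 1 and 4 together. Tgfb2 and Smad3 were not called in that fit or without WT mouse 1 alone (0.97 and -0.36). Csf1r and Tgfbr1 fell in microglia and rose in astrocytes, where 14 of 15 microglial markers also rose. In a screen of 40 groups for a library far from the others, of which chance gives about 1 in 20, 1 was found: Smad3 in astrocytes of APP replicate 2 stood at 89.28 CPM, against 69.44 to 74.68 CPM in the other 4, a gap of 0.736 of the whole range.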

How the results depend on the processing

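Over all genes, the 5022 calls in microglia became 2330 without WT replicates 1 and 4 and 2641 to 5085 with single mice left out. The 3836 in astrocytes became 142 without WT replicates 1 and 4, 386 with the endothelial covariate, 2113 with voom and 34 to 4217 with single mice left out, and the 3328 of the difference in response became 922 and 855 to 3303. Of the 10 genes, the 7 microglial calls became 3 without WT replicates 1 and 4 (2 to 8 with single mice left out), the 3 astrocyte calls 7 with DESeq2, 1 without WT replicates 1 and 4 and 1 with the endothelial covariate (1 to 6), and the 5 of the difference 3 (3 to 6). Of 848 alternative values for single genes 774 kept direction and call, 30 lost the call, 19 gained it and 25 changed sign. Sign changes were in values that were not called: in microglia Tgfb1 -0.01 with voom (-0.09 to 0.12 with single mice left out) and Tgfb3 -0.23 without WT replicates 1 and 4; in astrocytes Csf1 0.05 with no sex term, 0.11 without WT replicates 1 and 4 and 0.18 with the endothelial covariate, Tgfb2 -0.05 with that covariate, and Smad3 -0.02 to 0.12 with single mice left out. Csf1 between cell types in WT was 0.11 without WT replicates 1 and 4. In the difference in response Il34 was -0.09 with no sex term, Tgfb3 -0.03 with RLE scaling, -0.02 with no filter and -0.42 without WT replicates 1 and 4 (-0.25 to 0.63 with single mice left out), and, without WT replicates 1 and 4, Tgfbr2 was 0.11 and Nrros -0.22 (-0.01 to 0.36). The cause was not tested.

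The ligand shares moved, with single mice left out, by 1.85 to 3.28 percentage points for Csf1 in microglia (exact permutation, adjusted p 0.0571 without any 1 APP replicate, where fewer splits exist, as for Tgfb1 in astrocytes), -11.3 to -4.83 for Csf1 in astrocytes, 5.61 to 8 for Tgfb1 in astrocytes and -1.42 to -0.661 for Tgfb1 in microglia, which was called without WT replicate 2 (adjusted p 0.0238). Shares without length scaling, an alternative chosen after seeing the data, kept direction and call. The stricter filter gave no value for the low genes it removed. The replicate numbers of WT and APP mice share no source, and same-numbered libraries correlated at -0.356 to 0.0639 in astrocytes and -0.338 to 0.0935 in microglia; with that number as a block astrocytes had 1907 calls, 2 of them among the 10 genes (Tgfbr1, at 0.35, was lost), and Tgfb1 in microglia -0.02. The mouse as a block left 9, 10 and 5 of the 10 genes called in the joint comparisons and changed no call of these genes. Arms of few mice and, for Il34, Tgfb2 and Tgfb3 in microglia, low read numbers limit the precision.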
